A study of Mus musculus with 8 samples.

Results

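Osteocytes are bone-forming cells that have become enclosed in the matrix they made. Expression of 6 genes of these cells and of the phosphate hormone system they run was described in 8 primary mouse osteosarcomas, malignant tumours of bone-forming cells. The genes were Phex, Dmp1, Mepe, Fgf23, Pdpn and Irx5, chosen by name, and each was read by its only probe set that carries a single gene symbol. They are 6 of the 19938 genes measured in this way. All tumours arose in C57Bl6 mice, and each array held total RNA of 1 tumour. The model named shRNA OS (4 tumours) carried a short hairpin against p53 (genotype P53.1224). The model named Cre:lox OS (4 tumours) carried floxed p53 on both alleles (P53fl/fl). Of the shRNA OS tumours, replicates 1 and 3 were tibial and Rbfl/+ (1 floxed Rb allele), replicate 2 was tibial and Rb+/+, and replicate 4 came from the humerus and was Rbfl/+. Of the Cre:lox OS tumours, replicate 1 came from the scapula and was Rb+/+, replicate 2 from the humerus and replicates 3 and 4 from the tibia, all 3 being Rbfl/+. The sources used here do not state which promoter drives the hairpin or the Cre, nor the age and sex of the mice.

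Mature osteocytes make the hormone FGF23, which acts on the kidney to lower phosphate in blood. PHEX, a membrane peptidase, and DMP1, an acidic matrix protein, restrain FGF23, and loss of either in mice and people raises FGF23 and wastes phosphate. MEPE is a matrix protein of the same family as DMP1 that carries an acidic peptide inhibiting mineralisation. Podoplanin, the product of Pdpn, also known as E11, appears as the young osteocyte puts out its dendrites, before the markers of the mature cell. Irx5 encodes an Iroquois transcription factor of the skeleton and heart.

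Values are log2 intensities on the scale of RMA, the array normalization the authors used, so that a difference of 1 is a doubling of signal. Array medians over 35556 probe sets ran from 7.13 to 7.23, and precision was limited by how few arrays there were. The interquartile range, a measure of spread within an array, ran from 2.59 (shRNA OS replicate 2) to 3.19 (Cre:lox OS replicate 4). The deposited values thus differed in spread between arrays. No gene's level was set against another gene's, and a level above or below the array median only places a probe set on its array. One array, that of shRNA OS replicate 2, was less like the others (mean r of 0.941, against 0.961 to 0.968 for each of the other 7). Of the 10 osteoblast markers measured, 9 had a mean above the array medians.

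RefSeq promoter sequence (GRCm38.p6) was matched for 5 of the 6 genes, all but Irx5. The 250 bases before the start are printed for the genes that differed most between the models and for Mepe, which is separated from Dmp1 by Ibsp alone. Dmp1 has 2 annotated starts. Capitals mark the motifs TGTGGT (the core bound by RUNX factors), AGGTCA (a half-site of nuclear receptors), TGANTCA (AP-1), CACGTG (an E-box) and TATAAA, sought on both strands and chosen after the sequences were seen.
Phex (chrX:157415287-157415536, minus strand): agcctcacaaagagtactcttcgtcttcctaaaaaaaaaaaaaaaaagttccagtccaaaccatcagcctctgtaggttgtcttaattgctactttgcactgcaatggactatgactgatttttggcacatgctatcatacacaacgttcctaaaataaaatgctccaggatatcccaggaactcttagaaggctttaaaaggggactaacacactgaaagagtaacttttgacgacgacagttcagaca
Dmp1, first start (chr5:104197325-104197574, plus strand): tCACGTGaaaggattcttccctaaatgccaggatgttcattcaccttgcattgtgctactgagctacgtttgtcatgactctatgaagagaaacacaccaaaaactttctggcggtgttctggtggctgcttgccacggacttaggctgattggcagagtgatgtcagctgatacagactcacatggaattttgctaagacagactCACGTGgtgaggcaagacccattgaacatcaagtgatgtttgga
Dmp1, second start (chr5:104202367-104202616, plus strand): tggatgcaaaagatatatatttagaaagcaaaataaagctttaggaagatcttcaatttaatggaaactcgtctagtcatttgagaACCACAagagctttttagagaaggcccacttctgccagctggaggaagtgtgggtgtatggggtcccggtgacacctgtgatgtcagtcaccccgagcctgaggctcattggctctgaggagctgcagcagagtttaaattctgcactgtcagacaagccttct
Mepe (chr5:104325079-104325328, plus strand): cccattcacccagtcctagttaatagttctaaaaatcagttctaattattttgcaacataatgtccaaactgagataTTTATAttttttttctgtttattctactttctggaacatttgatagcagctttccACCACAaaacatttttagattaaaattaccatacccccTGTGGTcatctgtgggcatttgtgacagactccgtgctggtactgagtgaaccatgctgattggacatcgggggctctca
Pdpn (chr4:143299565-143299814, minus strand): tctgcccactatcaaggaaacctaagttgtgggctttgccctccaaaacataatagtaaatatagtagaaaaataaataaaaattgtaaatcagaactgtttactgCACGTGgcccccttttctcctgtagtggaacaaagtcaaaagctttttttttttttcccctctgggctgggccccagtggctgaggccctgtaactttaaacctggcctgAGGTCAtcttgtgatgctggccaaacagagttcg
The window of Phex held none of the 5 motifs. That of the first Dmp1 start held CACGTG at 2 places and that of Pdpn held it once. CACGTG is present in 6.02% of the 32851 windows of this length. The second Dmp1 start held the RUNX core once and Mepe held it at 2 places, a motif in 14% of windows. AGGTCA, also in 14% of windows, occurred in Pdpn, and TATAAA, in 12.4%, in Mepe on the opposite strand. TGANTCA (6.75% of windows) occurred in none of the 5 windows. These matches describe the letters only.

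The first comparison asks how tumours that arose with the p53 hairpin differ in these genes from tumours that arose with floxed p53. Phex, Dmp1 and Irx5 had higher means and Pdpn a lower mean in shRNA OS, while the means of Mepe and Fgf23 lay close together. None of the 6 passed limma's test with Benjamini-Hochberg adjustment over all genes, a threshold that 4 of 19938 genes (0.0201%) reached. At an unadjusted limma p under 0.05 stood 4 of the 6, against 9.63% of all genes, with 3 higher (3.61% of all genes) and 1 lower (6.02%). The models did not overlap for Phex, which was higher, and Pdpn, which was lower; 5.44% of all genes were separated in this way, 2% higher and 3.44% lower. The 6 genes had been chosen with earlier results of these data known, so these counts are a description. In whole tumours, fewer cells of a type and less RNA per cell cannot be told apart.

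**Figure D1:**
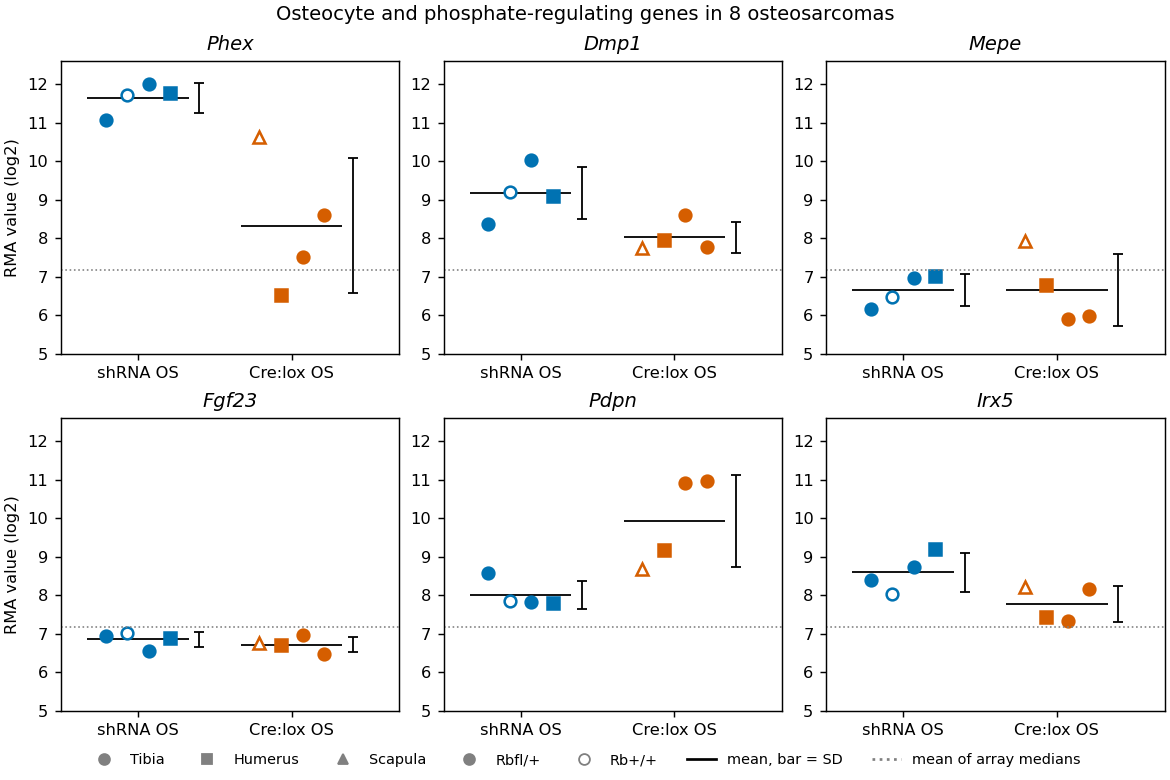
RMA values (log2) of the 6 genes by tumour, 4 in each model. Shapes give the bone, open symbols are Rb+/+ tumours, black lines are means with SD bars beside them, and the dotted line is the mean of the array medians. Phex and Pdpn separate the models in opposite directions, the Cre:lox OS scapular tumour is the nearest to shRNA OS in both, and Mepe and Fgf23 overlap.

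Among the enzymes and matrix proteins, Phex read 11.08, 11.71, 12.00 and 11.76 across the shRNA OS tumours, in the order of their replicate numbers, and 10.62, 6.52, 7.52 and 8.61 across the Cre:lox OS tumours. All shRNA OS tumours were above all Cre:lox OS tumours, with a gap of 0.46 between the nearest pair. The shRNA OS tumours lay close together and the Cre:lox OS tumours were scattered, from the scapular tumour near the shRNA OS level to the humeral tumour below the median of its array. The means were 11.64 ± 0.39 and 8.32 ± 1.75 (log2, SD, n = 4 each). The difference, shRNA OS minus Cre:lox OS, was 3.32 (SE 0.72, 95% interval 1.71 to 4.93), with a limma adjusted p of 0.192. In size it was the largest of all 19938 mean differences between the models, although by p it ranked 105.

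Phex also varied more than nearly every other gene, with only 4 genes having a larger SD over the 8 tumours (2.13, against a median of 0.27 for all genes). That SD holds the gap between the models as well as the spread within them. In shRNA OS its own SD was exceeded by 23% of genes, and in Cre:lox OS by 0.125%. Leaving out the scapular tumour, Cre:lox OS replicate 1, gave a difference of 4.09 and an adjusted p of 0.0291, the only 1 of 18 alternatives in which a gene of the 6 passed for the comparison of models. Leaving out shRNA OS replicate 2, whose array stood apart, gave 3.30.

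Dmp1 read 8.37, 9.20, 10.03 and 9.09 across the shRNA OS tumours and 7.75, 7.95, 8.60 and 7.78 across the Cre:lox OS tumours. The groups overlapped through a single pair, as shRNA OS replicate 1 lay below Cre:lox OS replicate 3. The difference was 1.15 (SE 0.33, 95% interval 0.41 to 1.89), with a limma adjusted p of 0.294, and 1.14 without shRNA OS replicate 2. The tumour with the highest Dmp1, shRNA OS replicate 3, also had the highest Phex. The scapular tumour joined high Phex to the lowest Dmp1 of all 8.

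Mepe read 6.16, 6.47, 6.98 and 7.03 across the shRNA OS tumours and 7.92, 6.78, 5.89 and 5.99 across the Cre:lox OS tumours. The highest and the lowest values both belonged to Cre:lox OS, and only the scapular tumour exceeded its array median. The means were 6.66 ± 0.42 and 6.64 ± 0.94 (SD, n = 4 each). The difference was 0.02 (SE 0.42), with a 95% interval of -0.93 to 0.96, which spans nearly 1 in either direction. It was -0.01 after median centring and -0.03 after quantile normalization, and without the scapular tumour it was 0.44. On chromosome 5 Dmp1, Ibsp and Mepe are neighbours in that order. Ibsp, which encodes bone sialoprotein, differed by 0.13 (SE 0.18), and Dspp, the gene of dentin sialophosphoprotein on the other side of Dmp1, by 0.20 (SE 0.18). In this stretch of 4 related genes only Dmp1 had an unadjusted p under 0.05.

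Fgf23, the hormone gene, lay below the array median in every tumour. It read 6.94, 7.01, 6.55 and 6.89 across the shRNA OS tumours and 6.75, 6.70, 6.95 and 6.46 across the Cre:lox OS tumours. The whole range was 0.55, and 71.5% of genes varied more over the 8 tumours. The difference was 0.13 (SE 0.16, 95% interval -0.22 to 0.48, limma adjusted p = 0.864). Signal over background was not analysed here, so whether this probe set reported any Fgf23 RNA is not known. Over the same tumours the range of Phex was 5.48.

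Pdpn, the early gene, read 8.56, 7.85, 7.81 and 7.80 across the shRNA OS tumours and 8.66, 9.16, 10.90 and 10.97 across the Cre:lox OS tumours. Every Cre:lox OS tumour was above every shRNA OS tumour, with a narrow gap of 0.10 between shRNA OS replicate 1 and the scapular tumour. The difference was -1.92 (SE 0.50, 95% interval -3.04 to -0.79), with a limma adjusted p of 0.244, and -1.87 without shRNA OS replicate 2. By size it ranked 44 of 19938. As with Phex, Cre:lox OS was the more scattered group, with an SD of 1.19 against 0.37.

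Irx5 read 8.40, 8.02, 8.73 and 9.19 across the shRNA OS tumours and 8.20, 7.44, 7.31 and 8.15 across the Cre:lox OS tumours. The groups overlapped because shRNA OS replicate 2, the array that stood apart, lay below 2 Cre:lox OS tumours. As a percentile of its own array, Irx5 stood at 65.18 in that tumour. In those Cre:lox OS tumours, replicates 1 and 4, it stood at 65.27 and 64.63. The difference was 0.81 (SE 0.29, 95% interval 0.16 to 1.46), with a limma adjusted p of 0.408. Without shRNA OS replicate 2 it was 1.00. Of the other 5 Iroquois genes all had higher means in shRNA OS, by 0.10 to 0.50, where 51.9% of all genes had higher and 48.1% lower means, and none had an unadjusted p under 0.05. Irx3, which shares the chromosome 8 cluster with Irx5, had the largest of these differences (0.50, SE 0.25). The mean level of the other 5 Iroquois genes was 7.62 in shRNA OS replicate 4. It was 7.01 to 7.23 in the remaining shRNA OS tumours and 6.85 to 7.09 in Cre:lox OS. On average 3 of the 5 lay below the array medians.

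**Figure D2:**
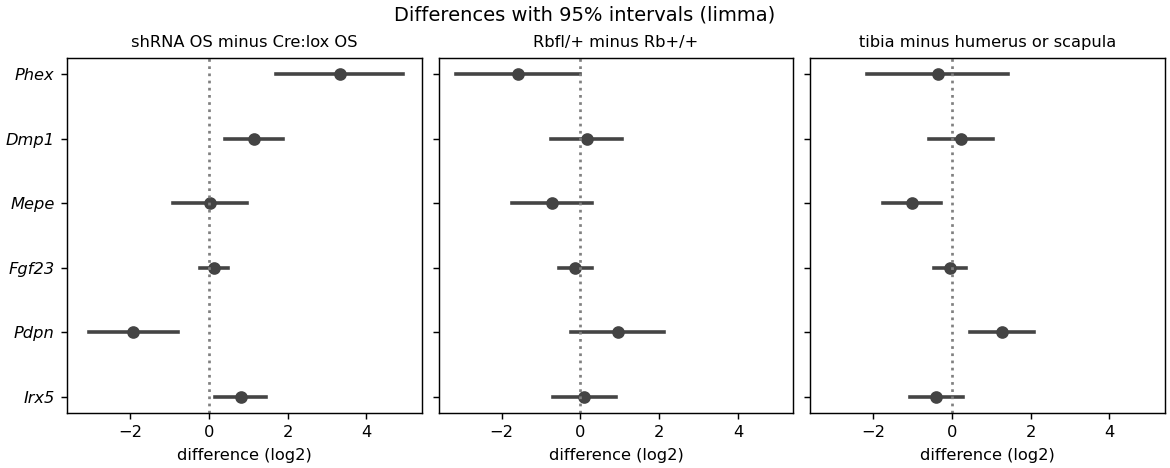
Differences in log2 RMA value for each of the 6 genes between the models, between Rb genotypes and between tumour sites. Points are limma estimates and lines their 95% intervals, which are not adjusted for the number of genes. For the models the intervals of Phex, Dmp1, Pdpn and Irx5 do not reach 0, for the Rb genotypes that of Phex does not, and for the sites those of Mepe and Pdpn do not.

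To set the early gene against the late ones, each gene was expressed as its deviation from its own mean over the 8 tumours. In shRNA OS the mean deviation of Phex, Dmp1, Mepe and Fgf23 was 0.58 ± 0.32 and that of Pdpn -0.96 ± 0.37 (log2, SD, n = 4). In Cre:lox OS the late genes stood at -0.58 ± 0.57 and Pdpn at 0.96 ± 1.19. With 4 tumours in each model, the model means of such deviations are equal and opposite by construction. Without Phex, an alternative added after the values were seen, the means of the late genes were 0.22 ± 0.29 and -0.22 ± 0.30. Of the late genes other than Phex, Dmp1 differed by 1.15 between the models, Fgf23 by 0.13 and Mepe by 0.02. The late side of this contrast thus rested mainly on Phex and Dmp1. Pdpn minus the late genes was -0.54, -1.71, -2.04 and -1.85 across the shRNA OS tumours and -0.56, 1.21, 2.70 and 2.80 across the Cre:lox OS tumours. The scapular tumour was thus on the side of the shRNA OS tumours, close to shRNA OS replicate 1, and the other 3 Cre:lox OS tumours lay on the opposite side. The choice of genes was made with their differences known, so no test is given for this quantity.

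**Figure D3:**
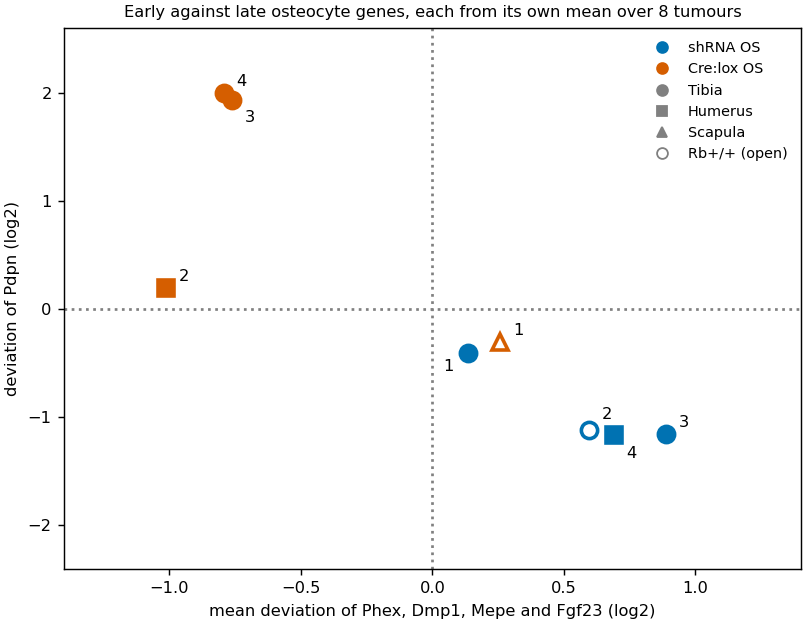
Deviation of Pdpn (vertical axis, log2) against the mean deviation of Phex, Dmp1, Mepe and Fgf23 (horizontal axis, log2) in each tumour, both from the gene's own mean over 8 tumours. Numbers are replicates, shapes the bone and open symbols Rb+/+ tumours. Of the 8 tumours, 5 lie at the lower right, among them the Cre:lox OS scapular tumour, and 3 Cre:lox OS tumours at the upper left.

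The second comparison asks whether tumours with a floxed Rb allele differ in these genes from Rb+/+ tumours, and its fit holds the model as covariate. None of the 6 passed over all genes and neither did any of the 19938 (0%), while an unadjusted limma p under 0.05 was reached by 943 genes (4.73%) and by 1 of the 6. The genotypes overlapped for all 6, whereas 4.63% of all genes did not overlap. That gene was Phex, with a difference, Rbfl/+ minus Rb+/+, of -1.58 (SE 0.69, limma adjusted p = 0.836). Only 2 tumours were Rb+/+, and they did not show the same thing. The Rb+/+ tumour of shRNA OS (11.71) lay among the other shRNA OS tumours in Phex, whereas that of Cre:lox OS (10.62) lay above all other Cre:lox OS tumours. The difference was accordingly -3.07 without the former and -0.10 without the latter. The Cre:lox OS Rb+/+ tumour was also the only scapular tumour, so genotype and site cannot be told apart in it. The shRNA OS Rb+/+ tumour was replicate 2, whose array was less like the others (mean r of 0.941). Genotype and array cannot be told apart in that tumour. The Rb difference of Pdpn was 0.94 (SE 0.52), and it was 1.68 without the Rb+/+ tumour of shRNA OS and 0.21 without that of Cre:lox OS. The differences of the other 4 genes were -0.72 for Mepe, 0.16 for Dmp1, -0.13 for Fgf23 and 0.09 for Irx5.

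The third comparison sets the 5 tibial tumours against the other 3, from humerus or scapula, and again holds the model as covariate. No gene of the 6 and none of the 19938 (0%) passed limma's adjusted threshold, and 1125 genes (5.64%) and 2 of the 6 had an unadjusted p under 0.05. The sites overlapped for all 6, and 2.6% of all genes did not overlap. Pdpn was higher in tibial tumours by 1.27 (SE 0.36, 95% interval 0.45 to 2.09, limma adjusted p = 0.691). Mepe was lower in them, with a difference of -1.02 (SE 0.32, 95% interval -1.74 to -0.29, limma adjusted p = 0.697). Within Cre:lox OS both tibial tumours had higher Pdpn and lower Mepe than both others. Within shRNA OS the humeral tumour had the highest Mepe (7.03 against 6.16 to 6.98) and the lowest Pdpn, although at 7.80 the latter was barely below the next (7.81). Without the scapular tumour the differences were 0.98 for Pdpn and -0.66 for Mepe. The Pdpn difference was 2.02 without the humeral tumour of shRNA OS and 0.68 without the model as covariate. Differences for the other 4 genes were -0.36 for Phex (SE 0.79), 0.24 for Dmp1, -0.04 for Fgf23 and -0.40 for Irx5. With site as a covariate the model difference of Pdpn was -2.24 (limma adjusted p = 0.0606), and among tibial tumours alone, 3 against 2, it was -2.86 (adjusted p = 0.078). Among tibial tumours alone the model difference of Phex was 3.53, and among Rbfl/+ tumours alone, 3 against 3, it was 4.06 (adjusted p = 0.0761).

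Of 8 other genes of mature osteocytes, 7 had a higher and 1 a lower mean in shRNA OS, where 51.9% of all genes had higher means, and the median difference was 0.34 against 0.01 for all genes. None passed over all genes, and 4 had an unadjusted p under 0.05, against 9.63% of all genes. Of these, 3 were higher and 1 lower, against 3.61% and 6.02% of all genes. Ptprz1, a receptor-type phosphatase, stood between 9.97 and 11.26 in shRNA OS and between 5.58 and 9.87 in Cre:lox OS, with a difference of 2.76 (SE 0.79, limma adjusted p = 0.294). Dkk1 (2.05) and Sost (1.18), which encode secreted Wnt antagonists, had higher means but overlapping groups. Dkk1 repeated the pattern of Phex in the scapular tumour, at 10.76 against 6.72 to 7.74 in the other 3 Cre:lox OS tumours. Sost was high in shRNA OS replicates 3 and 4 (9.12 and 8.81), whereas replicates 1 and 2 (7.15 and 7.36) were near the scapular tumour (7.31). Ackr3, a chemokine scavenging receptor, went the other way at -0.77 (SE 0.19, limma adjusted p = 0.236) and did not overlap. Some genes of this list had been seen to differ in an earlier analysis of these arrays.

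Of 10 genes for podoplanin's partners and for the embedding of osteocytes, 6 had lower and 4 higher means in shRNA OS, with a median of -0.27. None passed over all genes. Capg, an actin-capping protein, was lowest by p (-0.65, SE 0.17, limma adjusted p = 0.25), with all shRNA OS tumours below all Cre:lox OS tumours. Dstn, which encodes the actin-severing protein destrin, had the smallest p in the other direction (0.59, SE 0.21). Cd44, a hyaluronan receptor that binds podoplanin, stood at -0.38, and the linkers of membrane and actin Ezr, Msn and Rdx at -0.40, -0.26 and 0.12.

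Of 13 measured genes of the FGF23 axis, the mean was higher in shRNA OS for 10 and lower for 3, none passed over all genes and the median was 0.26. Vdr, the receptor for active vitamin D, did not overlap, with values from 10.36 to 11.44 in shRNA OS and from 9.15 to 10.26 in Cre:lox OS. Its difference was 1.41 (SE 0.29, limma adjusted p = 0.163), and the highest Cre:lox OS value was again that of the scapular tumour. Fam20c, the kinase that phosphorylates secreted matrix proteins including FGF23, stood at 0.68 (SE 0.22). Galnt3, whose sugar chains protect FGF23 from cleavage, had the smallest p of the lower genes (-0.51, SE 0.28). The receptor genes Fgfr1 (-0.04) and Fgfr3 (0.29) and the co-receptor gene Kl (0.02) differed by less than their standard errors. Fgfr2 (0.67, SE 0.38) and Pth1r (0.81, SE 0.51) had higher means in shRNA OS with overlapping groups.

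Of 9 measured genes of phosphate transport and mineralisation, the mean was higher in shRNA OS for 6 and lower for 3, with a median of 0.17 and none past the threshold over all genes. Smpd3, a sphingomyelinase needed for mineralisation, stood at 1.50 (SE 0.32, limma adjusted p = 0.184), and the phosphate importer gene Slc20a1 at -0.67 (SE 0.27). Alpl, the tissue phosphatase, stood at 0.24 (SE 0.22), and the phosphate exporter gene Xpr1 at -0.08. The other 6 peptidase genes of the neprilysin family, to which Phex belongs, ranged only from -0.31 for Ece2 to 0.18 for Kel, and none had an unadjusted p under 0.05.

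**Figure D4:**
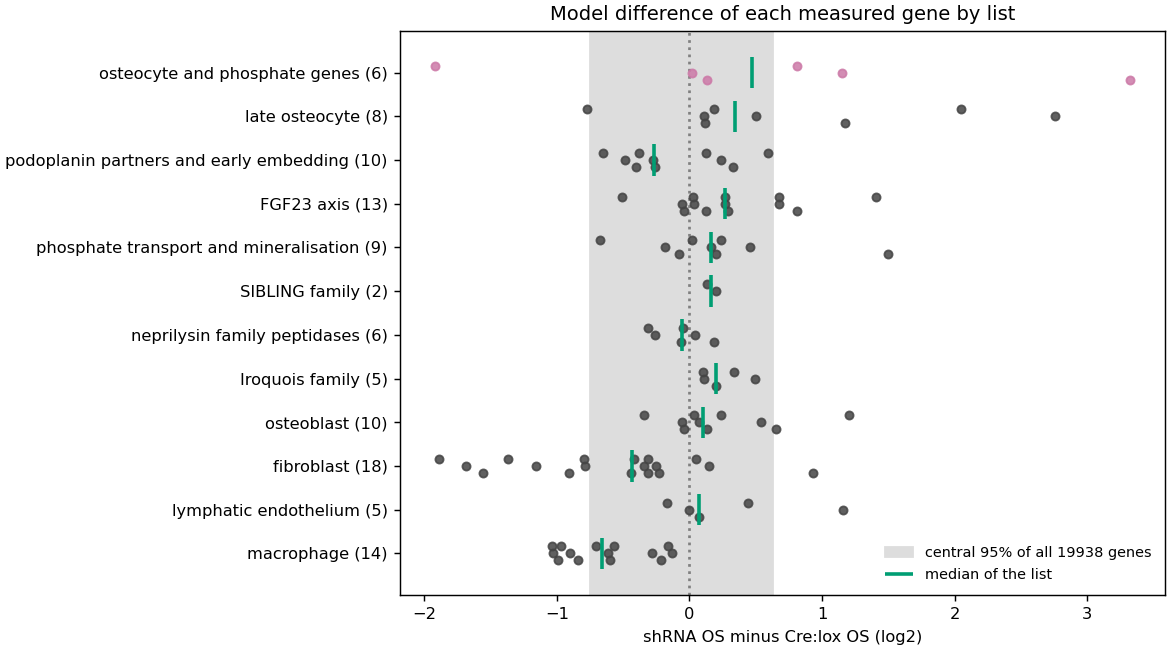
Difference in log2 RMA value, shRNA OS minus Cre:lox OS, of each measured gene in 12 lists, with the number of genes in brackets. Each point is a gene, the green line is the median of the list and the grey band spans the central 95% of all genes. Phex and Pdpn lie at opposite ends of the first row, and fibroblast and macrophage genes have medians of -0.43 and -0.66.

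Markers of other cell types were also read, since fibroblasts, lymphatic endothelium and some macrophages and epithelia make Pdpn too. No gene of these lists passed over all genes. Of 18 fibroblast genes 15 had lower means in shRNA OS, where 48.1% of all genes did. An unadjusted limma p under 0.05 between the models was reached by 7 lower and 1 higher, against 6.02% and 3.61% of all genes. For 4 of the 18, all lower, the models did not overlap, against 3.44% of all genes. The mean level of the list was 9.31 to 10.00 in shRNA OS and 10.00 to 10.79 in Cre:lox OS. It was highest in the tibial Cre:lox OS replicates 3 and 4, which had the highest Pdpn. S100a4 had the smallest p (-1.37, SE 0.27, limma adjusted p = 0.15), and Fap went the other way (0.93, SE 0.37). The means of all 14 macrophage genes were lower in shRNA OS, led by Itgam (-1.03), with list levels of 8.84 to 10.55 and 9.46 to 10.78. Between sites, 13 of the 14 had higher estimates in tibial tumours, where 44.5% of all genes did. An unadjusted p under 0.05 was reached by 12 of them, against 5.64% of all genes. Of the 18 fibroblast genes, 12 had higher and 6 lower estimates in tibial tumours. In that list 7 genes, all higher, had an unadjusted p under 0.05. The fibroblast gene Lum had the largest site difference of all genes (2.78, SE 0.29, limma adjusted p = 0.104). All 12 skeletal muscle genes had lower means in shRNA OS (median -0.72, smallest p for Myl1 at -1.82, SE 0.87) and higher estimates in tibial tumours (median 0.76), and none had an unadjusted p under 0.05 in either comparison. Their list level was highest in Cre:lox OS replicates 3 and 1 and in shRNA OS replicate 3 (10.36, 10.11 and 10.35) and ran from 7.38 to 8.98 in the other 5 tumours. The part of these cells in the Pdpn differences was not tested. Of 5 lymphatic endothelial genes 3 had higher means in shRNA OS, with the smallest p for Flt4 (1.16, SE 0.37, limma adjusted p = 0.347), a receptor for lymphatic growth factors, and Lyve1 stood at -0.17. Flt4 and Lyve1 lay above the array medians on average and the other 3 below, among them the defining factor Prox1 (mean 5.99 in shRNA OS and 5.92 in Cre:lox OS). Of 6 keratinocyte genes 4 lay below the array medians on average, and their list levels were 6.25 to 6.47 and 6.42 to 6.61. Trp63, an epithelial factor, stood at -0.61 (SE 0.21) without overlap, and Krt10 at 0.06.

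Of the osteoblast markers, 7 of 10 were on average higher in shRNA OS and 3 lower, with a median of 0.10 and list levels of 10.95 to 11.23 and 10.56 to 11.10. An unadjusted p under 0.05 was reached by 3 of the 10, all higher, against 9.63% of all genes in either direction and 3.61% higher. Sp7, the osteoblast factor osterix, did not overlap between the models (0.54, SE 0.21, limma adjusted p = 0.449), and Dlx3 stood at 0.66 (SE 0.26). The matrix genes Col1a1 (-0.06) and Sparc (0.04) differed by less than their standard errors, Atf4 stood at -0.35 (SE 0.19), and Dlx5, a homeobox factor of bone, stood at 1.20 (SE 0.42, limma adjusted p = 0.394). The part of the number of bone-forming cells in the Phex difference was not tested.

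The genes whose values most resembled those of each of the 6 were found by Pearson's r over the 8 tumours among 19937 genes, as a description with no test. With so few tumours, part of which share a model, high values occur among so many genes. Phex was most like Bmi1 (r = 0.97), a Polycomb repressor, Ephb1 (0.966), an ephrin receptor, and Tut4 (0.961), an RNA uridylyltransferase, and least like Prokr1 (-0.982). Dmp1 was most like Rec114, Adhfe1 and Slc25a16 (0.948 to 0.955) and least like Clca2 (-0.962). Pdpn was most like Bach2os, Il13ra1, a receptor chain for interleukin 13, and Bst1 (0.978 to 0.98) and least like Raph1 (-0.989). Irx5 was most like Ptpn9, Ramp2 and Bcl9l (0.958 to 0.967) and least like Slc39a14 (-0.964). For Mepe they were Pigo, Etl4 and Ccdc14 (0.973 to 0.982), least Vnn3 (-0.947), and for Fgf23 they were Hsd17b14, Tmem210 and Cd164l2 (0.989 to 0.991), least Bbs9 (-0.99). When the mean of each model was first taken out, none of the 3 genes most like Phex, Dmp1 or Pdpn stayed among the first 3, against 2 for Mepe, 3 for Fgf23 and 1 for Irx5. The models differed little in Mepe (0.02) and Fgf23 (0.13), so this step changed their values little. Their counts are therefore no sign of a firmer likeness. No member of the 6 was named for another.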

How the data were processed

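Total RNA of 8 primary tumours, homogenised in Trizol and purified on RNeasy columns per the labels' protocols, was biotin-labelled for 1-colour arrays. RMA was run by the authors, whose deposited log2 values were used unchanged. RMA and the build mm9 are named in the submitters' processing notes, and the RMA version is not given in the sources used here. Of 35556 probe sets 21789 carried 1 gene symbol in the platform annotation and 1621 several. The probe set of highest mean stood for a gene, giving 19938 genes, and each of the 6 genes had only 1. Probe sets were matched to RefSeq gene IDs (GRCm38.p6) for 21698.

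Groups came from the model in the labels. Replicate numbers follow accession order only and do not pair tumours. Every title carries a different tumour number, and whether any came from 1 mouse is not stated. The tests set each difference against the spread between these tumours. They treat the tumours as independent, which could not be checked. The test was limma's (version 3.58.1 in R 4.3.3, lmFit then eBayes) over all genes, with Benjamini-Hochberg adjustment, a threshold of 0.05 and no filter on dim genes. The models were compared without covariate, and Rb genotype and site with the model as covariate. The fits were run on simulated data with known shifts, as a check of the code and not of power in these tumours.

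The genes and lists were chosen with earlier results of these data known. Named genes were the 6, the gene of smallest p per direction in each list, and the 3 most and 1 least similar genes, passing over predicted and Y-linked genes. Further list genes were named after their values were seen. Alternatives were quantile normalization, median centring, removal of dim genes, averaging of a gene's probe sets, eBayes with trend and robust, array weights, other covariates, subsets of tumours and leaving out each tumour. Genes listed but not measured by a single-symbol probe set are not analysed here.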

Additional observations from a re-analysis of the deposited data

Results flagged for a closer look

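For the 6 genes in both models, 12 sets of 4 values, the gap between an extreme tumour and its neighbour was divided by the range and held against Dixon's critical value. By chance about 1 set in 20 exceeds it, and here 1 of 12 did. Pdpn in shRNA OS replicate 1 was 8.56, while the other 3 shRNA OS tumours lay between 7.80 and 7.85. In that tumour the mean level of the 14 macrophage genes was 10.55, against 8.84 to 9.45 in the other 3, and that of the 12 osteoclast genes was 8.88, against 10.57 to 11.19. Whether these bear on its Pdpn value was not tested.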

How the results depend on the processing

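Of 288 values of the 6 genes under alternatives, 271 kept their direction and their side of the threshold, 16 changed sign and 1 came to pass (Phex without Cre:lox OS replicate 1). Phex, Dmp1, Pdpn and Irx5 kept the sign of their model difference in all 18 alternatives, with ranges of 2.72 to 4.09, 0.87 to 1.42, -2.86 to -1.42 and 0.61 to 1.14. The model difference of Mepe changed sign with quantile normalization (-0.026), median centring (-0.013) and array weights (-0.28), and ran from -0.23 to 0.44 when single tumours were left out. The site difference of Phex was 0.55 without the model as covariate and -1.29 to 0.64 without single tumours, and that of Fgf23 -0.16 to 0.074. Without single tumours the Rb difference ran from -0.034 to 0.36 for Dmp1, -0.56 to 0.75 for Irx5, -1.70 to 0.25 for Mepe and 0.21 to 1.68 for Pdpn. Leaving out an Rb+/+ tumour leaves 1, which is then assumed to vary like the others. The number of genes past the threshold between the models, 4, was 8 with quantile normalization, 2 with median centring, 19 with array weights, 13 with site as covariate, 9 among Rbfl/+ tumours and 2 among tibial tumours, and 0 to 42 without single tumours. Between sites it was 0 to 1 without single tumours. Pdpn minus the late genes, -3.07 between the models, was -2.35 without Phex, an alternative chosen after seeing the data, and -3.77 to -2.65 without single tumours. The causes were not tested. Signal over background was not analysed, which limits what can be said of Fgf23 and Mepe. No paired analysis was possible because the replicate numbers only follow accession order.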

Other observations

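Genes next to the 6 on their chromosomes were read in the order of the reference annotation, up to 3 on each side. Phex differed by 3.32 between the models, while its nearest named neighbours on the X chromosome, Ptchd1, Smpx and Klhl34, stood at 0.05, -0.68 and 0.18, with no unadjusted limma p under 0.05. Beside Pdpn on chromosome 4, Prdm2 (0.09), Kazn (0.14) and Lrrc38 (0.11) lay near 0. Beside Irx5, Mmp2, a matrix metalloproteinase gene, stood at 0.10 and Crnde, a long noncoding RNA gene, at 0.69 (SE 0.40). Fgf23 itself did not separate the models, but Ccnd2, the cyclin D2 gene located 2 measured genes away on chromosome 6, did, with a difference of 1.60 (SE 0.44, limma adjusted p = 0.277). Other neighbours whose groups did not overlap were Zfp951, the second gene beyond Mepe (0.72, SE 0.19, limma adjusted p = 0.244), and D6Wsu163e near Fgf23 (-0.41, SE 0.14). Sparcl1, beyond Dspp from Dmp1, stood at -0.70 (SE 0.26) with overlap. These neighbours were named after their values were seen, and 5.44% of all genes did not overlap between the models.

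Of the cell types not described above, 8 of 10 blood endothelial genes had higher means in shRNA OS, with the smallest p per direction for Tek (1.01, SE 0.39) and Vwf (-0.32, SE 0.18). Of 11 chondrocyte genes 7 had higher and 4 lower means. Col2a1 (0.79, SE 0.35) and Col10a1 (0.64, SE 0.33) were higher without overlap, as were 2% of all genes, and Col9a1 stood at 0.38. Acan, the gene of the cartilage proteoglycan aggrecan, was lower without overlap (-1.49, SE 0.45, limma adjusted p = 0.319), as were 3.44% of all genes. Of 12 osteoclast genes 8 had higher means, with Oscar at 0.63 (SE 0.93) and Clcn7 at -0.39 (SE 0.21). Of 8 marrow blood cell genes 6 had higher means, with Ltf at 0.16 and Itga2b at -0.21. None of these genes passed limma's adjusted threshold.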
